A study of Homo sapiens with 9 samples.

Results

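The cholesterol and fatty acid synthesis genes examined here are a named set of 31 genes, chosen by gene symbol from the RNA-seq table of MCF10A cells. They are 31 of the 56609 gene symbols in that table. The set holds 18 genes of the sterol pathway in step order, 4 genes that regulate the SREBP system or carry sterol between membranes, and 9 genes of fatty acid synthesis. The rule used symbols and no measured value, but the members were chosen with earlier results of these data known. The counts below are therefore not those of a set picked blind to the data. All 31 passed the filter for testing, a mean of at least 1 TPM over the 9 samples. TPM is the level of a gene's transcripts per transcript length, scaled to a total of 1000000 in each sample.

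MCF10A is an established, non-tumorigenic human breast epithelial line, and 3 groups of 3 samples were sequenced as total RNA. All groups grew in DMEM/F12 medium with 5% horse serum, EGF, hydrocortisone, cholera toxin, insulin and antibiotics. For the controls no further treatment and no time is listed. The high calcium group was kept for 16 h with 10 mM calcium plus the calcium ionophore ionomycin, which the labels give at 1 mM, and what each agent contributed cannot be told apart. The TGFb3 group was exposed for 16 h to 10 nM of this growth factor. The labels do not say whether the 3 samples of a group were separate cultures, so the p-values cover only how these samples varied and the variation may be technical. In bulk RNA a higher share of cells with a transcript and more of it per cell cannot be told apart.

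Cells make cholesterol from acetyl-CoA through mevalonate, isoprenoid pyrophosphates, squalene and lanosterol, and they make fatty acids from the same acetyl-CoA through malonyl-CoA. The SREBP transcription factors drive most of these genes. Their precursors are held in the endoplasmic reticulum by INSIG proteins while membrane sterol is plentiful, and are carried to the Golgi and cleaved when it falls. SREBP-2, from SREBF2, acts mainly on the cholesterol genes, and SREBP-1, from SREBF1, mainly on the fatty acid genes.

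The start regions of 4 members are shown because these genes carry the contrasts described further on. HMGCS1 had the largest rise with high calcium, INSIG1 encodes the sterol-sensing brake, and SREBF2 and SREBF1 encode the paired factors. Each run is the 250 bases before the transcription start in RefSeq's GRCh38.p14 annotation, at chr5:43313413-43313662 (reverse strand), chr7:155297628-155297877 (forward strand), chr22:41832855-41833104 (forward strand) and chr17:17836987-17837236 (reverse strand), written along the gene's own strand. Capitals mark a sterol response element (TCACNCCAC), an E-box (CACGTG) or a CCAAT box, searched on both strands, so that ATTGG is a CCAAT box on the other strand.
HMGCS1: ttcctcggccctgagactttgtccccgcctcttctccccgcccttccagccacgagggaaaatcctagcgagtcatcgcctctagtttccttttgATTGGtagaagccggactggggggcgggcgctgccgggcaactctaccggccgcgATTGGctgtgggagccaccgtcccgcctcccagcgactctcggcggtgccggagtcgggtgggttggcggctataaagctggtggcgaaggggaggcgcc
INSIG1: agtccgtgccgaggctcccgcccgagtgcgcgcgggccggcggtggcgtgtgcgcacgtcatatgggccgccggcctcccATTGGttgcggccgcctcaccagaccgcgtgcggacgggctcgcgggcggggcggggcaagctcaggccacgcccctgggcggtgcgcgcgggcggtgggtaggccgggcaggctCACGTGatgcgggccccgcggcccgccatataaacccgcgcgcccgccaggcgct
SREBF2: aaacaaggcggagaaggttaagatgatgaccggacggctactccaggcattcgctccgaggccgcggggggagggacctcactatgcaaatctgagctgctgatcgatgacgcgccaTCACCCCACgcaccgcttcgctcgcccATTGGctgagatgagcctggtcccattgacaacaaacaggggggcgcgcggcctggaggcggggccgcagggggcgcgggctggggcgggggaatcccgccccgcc
SREBF1: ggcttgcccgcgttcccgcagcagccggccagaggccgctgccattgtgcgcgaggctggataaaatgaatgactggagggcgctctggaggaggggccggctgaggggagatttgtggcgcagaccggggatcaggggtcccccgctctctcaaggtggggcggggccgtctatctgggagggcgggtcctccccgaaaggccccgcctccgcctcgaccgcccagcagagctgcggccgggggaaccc

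The SREBF2 window held the sterol response element TCACCCCAC at positions −133 to −125 relative to the start, and a CCAAT box downstream of it. In INSIG1 the E-box lay at −55 to −50 and the CCAAT box at −170 to −166. HMGCS1 had 2 CCAAT boxes, and these SREBF1 letters held none of the 3 motifs. RefSeq windows of 300 bases, from 250 before to 50 after a start, were found for 27 of the 31 members. CCAAT boxes were present in 21 of those 27 genes, or 77.8%, against 39.7% of all 27305 genes with a window and 43.7% of the 9512 that were also tested for expression. A sterol response element of these letters was found in 1 of the 27 (3.70%), against 1.39% of all genes and 1.47% of tested ones. An E-box was found in 3 (11.1%), LSS, SC5D and INSIG1, against 8.77% of all genes and 12.7% of tested ones. GC boxes (GGGCGG) were found in 26 of 27 (96.3%), against 48.3% of all genes and 77.5% of tested ones. The 6 members with a window and no CCAAT box were PMVK, CYP51A1, SREBF1, ELOVL6, FADS1 and AACS. A match of letters describes the window, and no factor's binding was measured.

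Levels in untreated cells differed widely along the pathway. On the TPM scale, which is per length, FDPS was the most abundant member in controls at 822 ± 8.59 TPM (SD, n = 3 here and below), followed by SCD at 577 ± 16.9 and FDFT1 at 472 ± 22.4 TPM. The lowest were TM7SF2 at 3.43 ± 1.00 and FADS2 at 5.96 ± 0.806 TPM. Summed over the 31 genes, controls held 4680.0 ± 143 TPM, high calcium samples 9730.5 ± 16.8 and TGFb3 samples 6415 ± 86.3 TPM. These sums are 0.468%, 0.973% and 0.642% of all TPM.

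Features of the whole libraries bear on these values. Mitochondrially encoded genes took 22.7% ± 0.91 of TPM in controls, 11.5% ± 0.37 with high calcium and 22.7% ± 0.59 with TGFb3. For high calcium against control the exact two-sided permutation p was 0.1, the smallest that 3 against 3 samples allow. Because TPM adds to a fixed total, the smaller share leaves more for all other genes, and the median difference over all 13968 tested genes was 0.22 (log2) for high calcium against control, −0.06 for TGFb3 against control and 0.27 for high calcium against TGFb3. Rescaling each sample by its median ratio over genes brought these medians to −0.006, −0.019 and −0.003, and is given beside the results. All 8 epithelial markers examined were detected, at levels that differed by group. EPCAM averaged 294 TPM in controls, 397 with high calcium and 118 with TGFb3, and KRT6A averaged 631, 964 and 1723 TPM. Of 4 endothelial markers, 1 reached a mean of 1 TPM: KDR, at 3.96 TPM in controls, 6.86 with high calcium and 1.71 with TGFb3. The adipocyte markers ADIPOQ, LEP and CIDEC and the blood markers PTPRC and CD3E were listed at 0 in all 9 samples. CD68, also on the blood list, averaged 2.04 TPM in controls, 24.8 with high calcium and 11.0 with TGFb3. No adipocyte marker reached a mean of 1 TPM, and PLIN1 averaged 0.018, 0.38 and 0.035 TPM in the same order. The 5 fibroblast markers, 2 of which reached a mean of 1 TPM, summed to 2.60 to 3.44 TPM in controls, 9.75 to 12.3 with high calcium and 28.4 to 32.0 with TGFb3, with COL1A2 at 0 throughout, and the part of any of these in the results was not tested.

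High calcium against control asks how the gene set stood after calcium and ionomycin. With high calcium, 29 of the 31 genes rose, none fell and 2 did not pass the test (limma on log2(TPM + 1), adjusted p below 0.05 over all tested genes). The background was high: 46.1% of all tested genes were called higher and 17.0% lower in this comparison. The median difference over the 31 genes was 0.90 (log2), against 0.22 over all tested genes. After median ratio rescaling, 24 members were called higher and 2 lower, against 29.7% and 30.8% of all tested genes, with a median of 0.65. Sample by sample, 28 members had every high calcium value above every control value, and none had the reverse, against 49.4% and 19.6% of tested genes, and the 3 whose samples overlapped were MVK, SREBF1 and ACACA. With mitochondrial genes left out and TPM rescaled to the rest, 26 of the 31 were called higher and 2 lower. The shares over all tested genes were not counted under that setting.

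All 18 sterol pathway genes were called higher with high calcium, against 46.1% of all tested genes. After rescaling 15 of them (83.3%) still were, against 29.7%. Their summed level went from 3252 ± 86.6 to 7333 ± 32.8 TPM, a ratio of 2.25, or 1.97 when mitochondrial genes were left out of the total. The plot of sterol pathway levels shows the high calcium samples above the controls at every step but that of MVK.

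**Figure D1:**
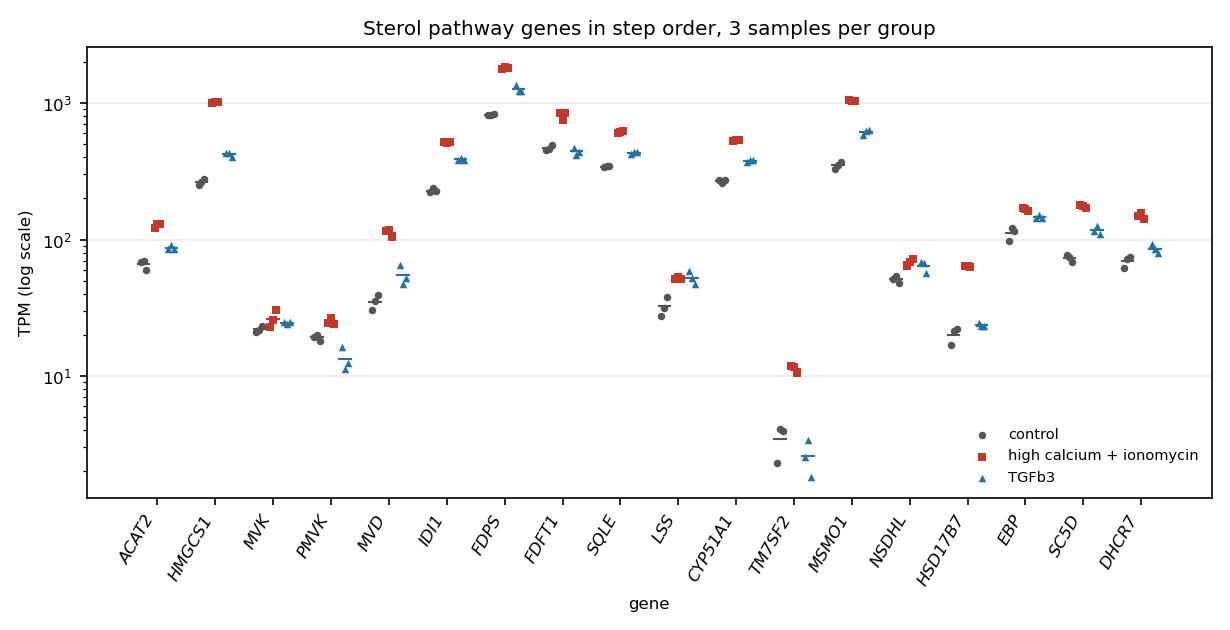
Level of the 18 sterol pathway genes (x axis, in step order) in TPM on a log axis, 1 point per sample, with a line at the mean of each group (3 samples each of control, high calcium with ionomycin, and TGFb3). HMGCS1 lies at 252 to 277 TPM in controls and 1002 to 1021 TPM with high calcium, whereas the high calcium values of MVK overlap those of both other groups.

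HMGCS1 (chr5:43289395-43313512, reverse strand), which makes HMG-CoA at the entry to the pathway, had 252, 265 and 277 TPM in the controls, 1002, 1014 and 1021 TPM with high calcium and 432, 433 and 404 TPM with TGFb3. The 3 high calcium samples lay far above all others, and the TGFb3 samples lay between them and the controls. Its ratio of mean TPM was 3.83, and the log2 difference was 1.93 ± 0.044 (SE, adjusted p = 5.4e-10). ACAT2, the thiolase that supplies acetoacetyl-CoA, rose by 0.95 from 65.7 to 128 TPM. ACAT2 shares genomic sequence with SOD2 and TCP1 on the opposite strand, which averaged 183 and 517 TPM in controls and 1430.2 and 373 TPM with high calcium, and the sources used here do not say whether counting used strand.

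The mevalonate kinases rose least among the 18 genes. MVK, which phosphorylates mevalonate, averaged 22.0 ± 1.11 TPM in controls and 26.1 ± 3.73 with high calcium, a difference of 0.23 (adjusted p = 0.046) close to the median of all tested genes. That call was lost in 13 of 19 alternative analyses, and after rescaling the difference was −0.01. MVK overlaps MMAB on the opposite strand, which averaged 21.2 TPM in controls and 27.9 TPM with high calcium. PMVK (chr1:154924734-154936991, reverse strand), which adds the next phosphate, had 19.2, 20.0 and 18.1 TPM in the controls, 24.4, 26.6 and 24.2 TPM with high calcium and 16.2, 11.2 and 12.3 TPM with TGFb3. High calcium samples were the highest and TGFb3 samples the lowest, with no overlap between groups. Its rise of 0.37 ± 0.11 (SE, adjusted p = 0.015) was not called after rescaling, at 0.13 (adjusted p = 0.35).

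MVD (chr16:88651935-88663161, reverse strand) decarboxylates mevalonate pyrophosphate to the first isoprenoid unit. Its values were 30.2, 35.5 and 39.0 TPM in the controls, 115, 118 and 104 TPM with high calcium and 64.8, 47.1 and 52.3 TPM with TGFb3. The groups did not overlap and stood in the order control, TGFb3, high calcium. MVD rose 3.21-fold in mean TPM with high calcium, by 1.66 ± 0.12 (SE, adjusted p = 1.2e-06) on the log2 scale. IDI1, the isomerase of that unit, and FDPS, which builds farnesyl pyrophosphate, rose by 1.18 and 1.14. FDPS reached 1811 ± 20.8 TPM, the highest level of any member in any group.

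From squalene to lanosterol the rises were of middle size. FDFT1, squalene synthase, rose by 0.79, SQLE, squalene epoxidase, by 0.84 and LSS, lanosterol synthase, by 0.67. CYP51A1, which starts demethylation of lanosterol, rose by 0.99 from 269 to 534 TPM.

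The remaining genes, which turn lanosterol into cholesterol, rose by between 0.41 and 1.63. TM7SF2, a sterol reductase, went from 3.43 ± 1.00 to 11.3 ± 0.794 TPM, a difference of 1.50 ± 0.20 (SE, adjusted p = 0.00010). It overlaps VPS51 on the same strand, which averaged 15.2 TPM in controls and 22.0 TPM with high calcium. MSMO1 (chr4:165327623-165343160, forward strand), the methylsterol oxidase, had 329, 350.5 and 369 TPM in the controls, 1052, 1044 and 1043 TPM with high calcium and 588, 627 and 639 TPM with TGFb3. Each treated group was clear of the controls, and high calcium gave the higher values. Its rise with high calcium was 1.58 ± 0.048 (SE, adjusted p = 4.0e-09).

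HSD17B7 (chr1:162790702-162812817, forward strand), the ketoreductase that works with MSMO1 and NSDHL to remove methyl groups, had 16.8, 21.3 and 22.0 TPM in the controls, 63.9, 64.1 and 62.6 TPM with high calcium and 24.5, 23.1 and 23.0 TPM with TGFb3. Its high calcium samples were about level with each other and far above both other groups, with a rise of 1.63 ± 0.087 (SE, adjusted p = 1.6e-07). Its copy HSD17B7P2 averaged 1.29 TPM in controls and 5.04 TPM with high calcium, and the sources used here do not say how reads common to both were assigned. NSDHL, the dehydrogenase of the same complex, rose by only 0.41 and was not called after rescaling (0.16). For the final steps, EBP, the isomerase, rose by 0.58, SC5D, the desaturase, by 1.26 and DHCR7, the last reductase, by 1.09. DHCR7 overlaps the antisense gene AP002387.1, which averaged 10.9 TPM in controls and 17.5 TPM with high calcium.

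The makeup of the pathway's RNA differed between the groups. HMGCS1 made up 8.13% ± 0.16 (SD) of the summed TPM of the 18 genes in controls and 13.8% ± 0.12 with high calcium, and MSMO1 10.7% ± 0.34 and 14.3% ± 0.097. FDFT1 made up 14.5% ± 0.37 in controls and a smaller share, 11.2% ± 0.74, with high calcium, although its level was higher. FDPS held 25.3% ± 0.52 and 24.7% ± 0.33. These shares are within each sample and do not depend on its scaling. The TPM ratio of HMGCS1 to FDFT1 was 0.560 ± 0.0077 in controls, 1.24 ± 0.092 with high calcium and 0.957 ± 0.065 with TGFb3.

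**Figure D2:**
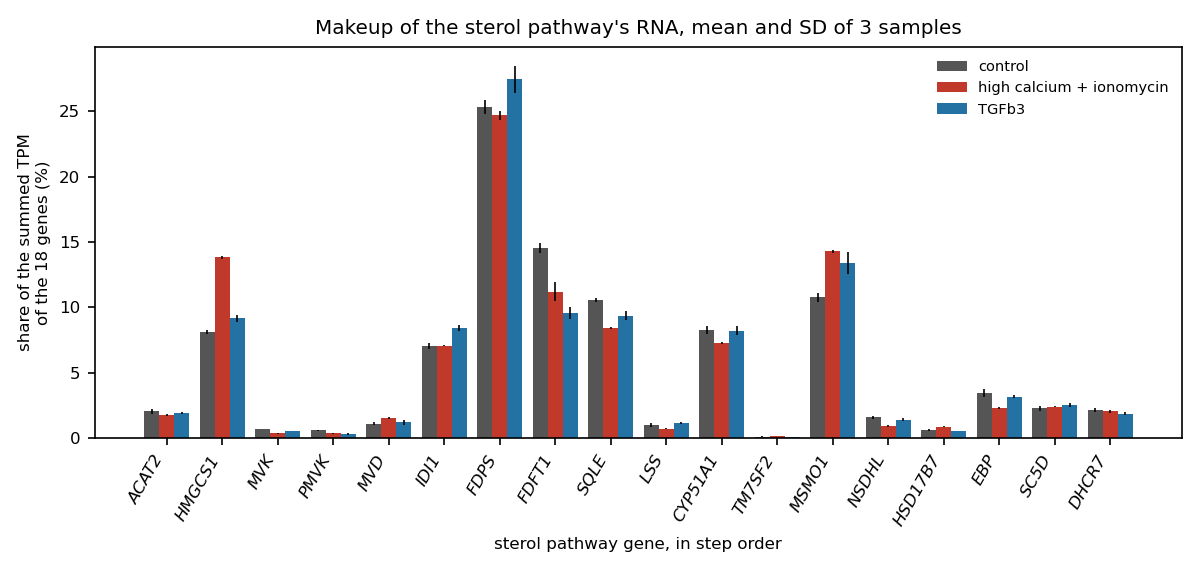
Share of the summed TPM of the 18 sterol pathway genes (y axis, percent) held by each gene (x axis, in step order), as bars for the mean of 3 samples with SD error bars, in control, high calcium with ionomycin, and TGFb3. HMGCS1 goes from 8.13% in controls to 13.8% with high calcium, and FDFT1 is lower in both treated groups.

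Among the 4 regulator and transfer genes, 3 (75%) rose with high calcium, against 46.1% of all tested genes, and SREBF1 did not pass the test. SREBF2 (chr22:41833079-41907308, forward strand), whose product is the main factor for cholesterol genes, had 55.8, 56.2 and 60.6 TPM in the controls, 98.0, 94.7 and 94.2 TPM with high calcium and 64.5, 60.8 and 61.4 TPM with TGFb3. Its high calcium samples were clearly the highest, with a rise of 0.72 ± 0.046 (SE, adjusted p = 5.0e-07). SREBF1 (chr17:17810399-17837002, reverse strand), the gene of its partner, had 23.5, 22.9 and 29.5 TPM in the controls, 25.6, 23.7 and 22.2 TPM with high calcium and 26.7, 24.2 and 23.5 TPM with TGFb3. The 3 groups of SREBF1 overlapped, and the difference with high calcium was −0.08 (adjusted p = 0.51), with a 95% interval of −0.30 to 0.14. After rescaling, SREBF1 was called lower with high calcium, at −0.32 (adjusted p = 0.0094). SREBF1 overlaps RAI1 on the opposite strand, which averaged between 9.08 and 9.88 TPM in the 3 groups. The TPM ratio of SREBF2 to SREBF1 was 2.29 ± 0.21 in controls, 4.02 ± 0.21 with high calcium and 2.52 ± 0.098 with TGFb3.

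INSIG1 (chr7:155297776-155310235, forward strand), which retains the SREBP precursors when sterol is plentiful and is itself an SREBP target, had 86.3, 89.4 and 88.1 TPM in the controls, 155, 148 and 149 TPM with high calcium and 122, 127 and 127 TPM with TGFb3. Both treated groups were above the controls, and its rise with high calcium was 0.77 ± 0.037 (SE, adjusted p = 6.8e-08). STARD4 (chr5:111496033-111512590, reverse strand), which carries sterol between membranes, had 32.0, 33.6 and 34.5 TPM in the controls, 73.9, 76.7 and 74.0 TPM with high calcium and 64.8, 70.6 and 67.6 TPM with TGFb3. Every value in the treated groups was well above every control value, and the difference with high calcium was 1.14 ± 0.048 (SE, adjusted p = 2.9e-08).

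Of the 9 fatty acid synthesis genes, 8 (88.9%) rose with high calcium, against 46.1% of all tested genes, and ACACA did not pass the test. After rescaling, 6 (66.7%) were higher and 1 (11.1%) lower, against 29.7% and 30.8% of all tested genes. The gene then called lower was ACACA, at −0.24, and FASN (0.31, adjusted p = 0.059) and ELOVL6 (−0.0061) were not called. The summed level of the 9 went from 1224 ± 49.3 to 2052 ± 17.8 TPM, a ratio of 1.68 (1.46 without mitochondrial genes), against 2.25 for the sterol genes. The gene with the largest rise was ACSS2 (chr20:34872146-34927962, forward strand), which makes acetyl-CoA from acetate. ACSS2 had 98.4, 106 and 99.8 TPM in the controls, 313, 336 and 318 TPM with high calcium and 98.1, 96.0 and 98.6 TPM with TGFb3. The rise was confined to the high calcium samples among these 3 groups, at 1.66 ± 0.042 (SE, adjusted p = 1.1e-09). ACLY, which makes acetyl-CoA from citrate, rose by 0.48. The TPM ratio of ACSS2 to ACLY was 0.433 ± 0.018 in controls, 0.982 ± 0.041 with high calcium and 0.336 ± 0.013 with TGFb3.

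ACACA (chr17:37084988-37406818, reverse strand), the carboxylase that makes malonyl-CoA, had 73.0, 73.6 and 83.1 TPM in the controls, 77.7, 79.0 and 74.2 TPM with high calcium and 58.1, 57.3 and 59.3 TPM with TGFb3. Control and high calcium samples overlapped, with a difference of 0.01 (adjusted p = 0.89), while the TGFb3 samples were lower than both. FASN, the fatty acid synthase that uses malonyl-CoA, had 62.8, 69.1 and 98.7 TPM in the controls, 114, 116 and 106 TPM with high calcium and 68.5, 61.1 and 56.9 TPM with TGFb3. The third control sample stood above the other controls, and the rise of 0.56 (adjusted p = 0.0057) was smaller than that of most sterol genes. SCD, the desaturase for monounsaturated fatty acids, rose by 0.75 from 577 to 968 TPM. ELOVL6 (chr4:110045846-110199199, reverse strand), the elongase acting on the product of FASN, had 103, 107 and 101 TPM in the controls, 127, 116 and 128 TPM with high calcium and 64.1, 69.1 and 75.2 TPM with TGFb3. High calcium values were the highest and TGFb3 values the lowest, and the rise with high calcium was 0.25 ± 0.063 (SE, adjusted p = 0.0061).

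FADS1 (chr11:61799625-61829318, reverse strand) and FADS2 encode desaturases of polyunsaturated fatty acids. FADS1 had 24.4, 25.3 and 22.9 TPM in the controls, 57.2, 57.3 and 59.0 TPM with high calcium and 41.2, 43.0 and 41.9 TPM with TGFb3. The groups were fully separate, in the order control, TGFb3, high calcium. FADS1 rose by 1.22 ± 0.049 (SE, adjusted p = 2.2e-08) with high calcium and FADS2, from 5.96 ± 0.806 to 17.6 ± 0.829 TPM, by 1.43 ± 0.12 (SE, adjusted p = 4.1e-06). These genes overlap each other on opposite strands, and FADS2 overlaps FEN1 on the same strand, which averaged 52.7 TPM in controls, 14.4 with high calcium and 28.2 with TGFb3. AACS, which activates acetoacetate for lipid synthesis, rose by 0.90 from 23.8 to 45.2 TPM.

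**Figure D3:**
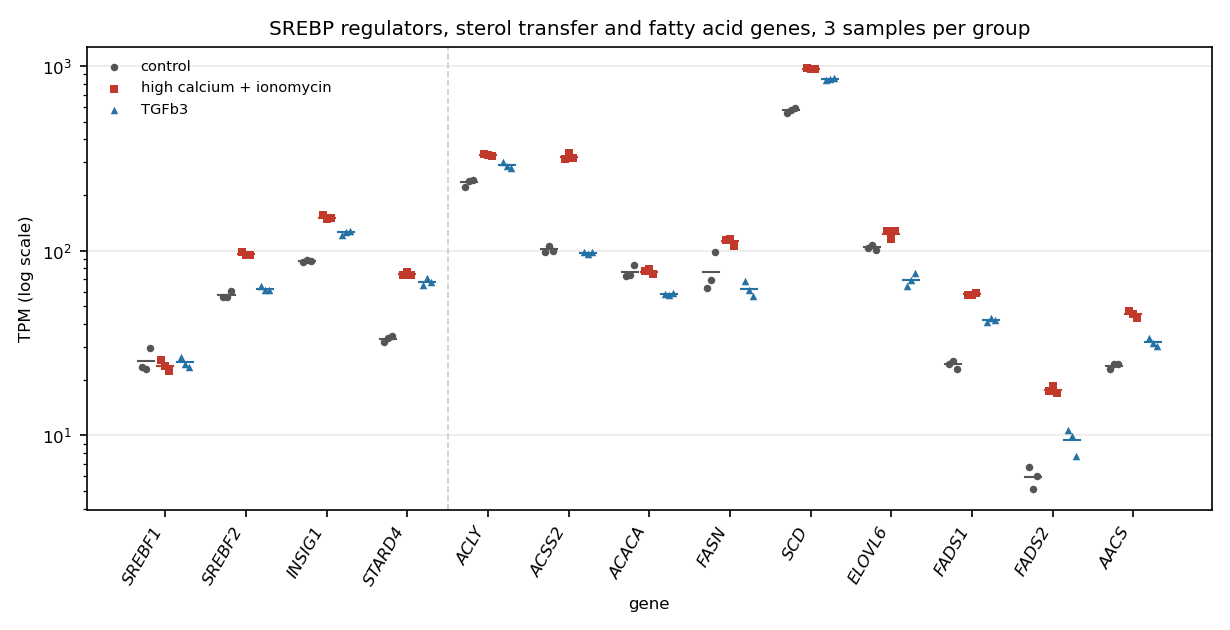
Level of the 4 regulator and sterol transfer genes (left of the dashed line) and the 9 fatty acid synthesis genes (right), in TPM on a log axis, 1 point per sample, with a line at each group's mean (3 samples per group). ACSS2 is high in the high calcium samples alone (313 to 336 TPM), ELOVL6 and ACACA are lowest with TGFb3, and the groups of SREBF1 overlap.

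TGFb3 against control asks the same of the growth factor. With TGFb3, 21 of the 31 genes rose, 3 fell (PMVK, ACACA and ELOVL6) and 7 did not pass the test. Among all tested genes 26.5% were called higher and 33.1% lower. The median difference was 0.39 (log2) over the 31 genes and −0.06 over all tested genes. After median ratio rescaling 22 were higher and 3 lower, against 28.9% and 30.6% of all tested genes. Every TGFb3 value lay above every control value for 23 members and below for 3, against 28.4% and 35.4% of tested genes. The mitochondrial share was the same in these groups, 22.7% of TPM in each. TGFb3 and high calcium are set against the same 3 control samples, so the comparisons with control are not independent of each other.

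In the sterol pathway 14 of 18 genes (77.8%) rose with TGFb3 and 1 (5.6%), PMVK, fell, against 26.5% and 33.1% of all tested genes. MVK, FDFT1 and TM7SF2 did not pass the test. The summed level of the 18 was 4623 ± 85.7 TPM, a ratio of 1.42 to control. MSMO1 had the largest rise of the 18, 0.82 ± 0.048 (SE, adjusted p = 3.2e-07), or 1.77-fold in mean TPM. IDI1 (chr10:1039152-1049170, reverse strand) followed, with 223, 238 and 225 TPM in the controls, 521, 512 and 523 TPM with high calcium and 384, 394 and 385 TPM with TGFb3. Its TGFb3 samples sat midway between the other groups and differed from control by 0.76 ± 0.036 (SE, adjusted p = 7.3e-08). LSS rose by 0.69, HMGCS1 by 0.68, SC5D by 0.67, MVD by 0.63 and FDPS by 0.62. CYP51A1, ACAT2, EBP, SQLE, NSDHL and DHCR7 rose by 0.50, 0.40, 0.39, 0.33, 0.32 and 0.30.

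Some steps did not follow. PMVK, with its values given above, fell by 0.51 (adjusted p = 0.0029) between steps whose genes rose or were not called. The difference of FDFT1, squalene synthase, was −0.09 (adjusted p = 0.23) with a 95% interval of −0.23 to 0.05, while FDPS before it and SQLE after it both rose. Its share of the pathway's TPM was 14.5% ± 0.37 in controls and 9.58% ± 0.45 with TGFb3. MVK differed by 0.15 (adjusted p = 0.18) and TM7SF2, at 2.58 ± 0.799 TPM, by −0.31 (adjusted p = 0.21). TM7SF2 was called lower, at −0.51, when the first control sample was left out. The rise of HSD17B7 was small, 0.23 (adjusted p = 0.043), and was lost in 11 of 19 alternative analyses. Without the first control sample it was 0.12.

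Of the 4 regulator and transfer genes, 2 (50%) rose with TGFb3, against 26.5% of all tested genes. STARD4 had the largest rise of all 31 members. The log2 difference was 1.00 ± 0.048 (SE, adjusted p = 8.1e-08), a 2.03-fold ratio of mean TPM. INSIG1 rose by 0.51 ± 0.037 (SE, adjusted p = 1.3e-06). SREBF2 differed from control by 0.11 ± 0.046 (SE, adjusted p = 0.058), which missed the threshold, although it was called higher after rescaling and when the third control sample was left out (0.15, adjusted p = 0.017). SREBF1 differed by −0.02 (adjusted p = 0.85), with a 95% interval of −0.24 to 0.20.

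The fatty acid genes divided under TGFb3, with 5 of 9 (55.6%) higher and 2 (22.2%) lower, against 26.5% and 33.1% of all tested genes. FADS1 rose by 0.77 ± 0.049 (SE, adjusted p = 5.3e-07), FADS2 by 0.58, SCD by 0.56, AACS by 0.40 and ACLY by 0.31. ELOVL6 fell by 0.58 (SE 0.063, adjusted p = 2.5e-05) and ACACA fell by 0.39 (SE 0.054, adjusted p = 0.00015). FASN differed by −0.28 (adjusted p = 0.12), and it was called lower, at −0.41 (adjusted p = 0.029), when the first control sample was left out. ACSS2 differed by −0.06 (adjusted p = 0.29), with a 95% interval of −0.15 to 0.04. Among these 9, the desaturase genes were called higher, the carboxylase ACACA and the elongase ELOVL6 lower, and the synthase FASN was not called. Elongase genes outside the 9 went either way. ELOVL4 averaged 7.68 TPM in controls and 18.2 with TGFb3, and ELOVL5 had 194, 196 and 192 TPM in controls and 156, 163 and 165 with TGFb3. The TPM ratio of SCD to FASN was 7.76 ± 1.5 in controls, 8.65 ± 0.39 with high calcium and 13.8 ± 1.5 with TGFb3.

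**Figure D4:**
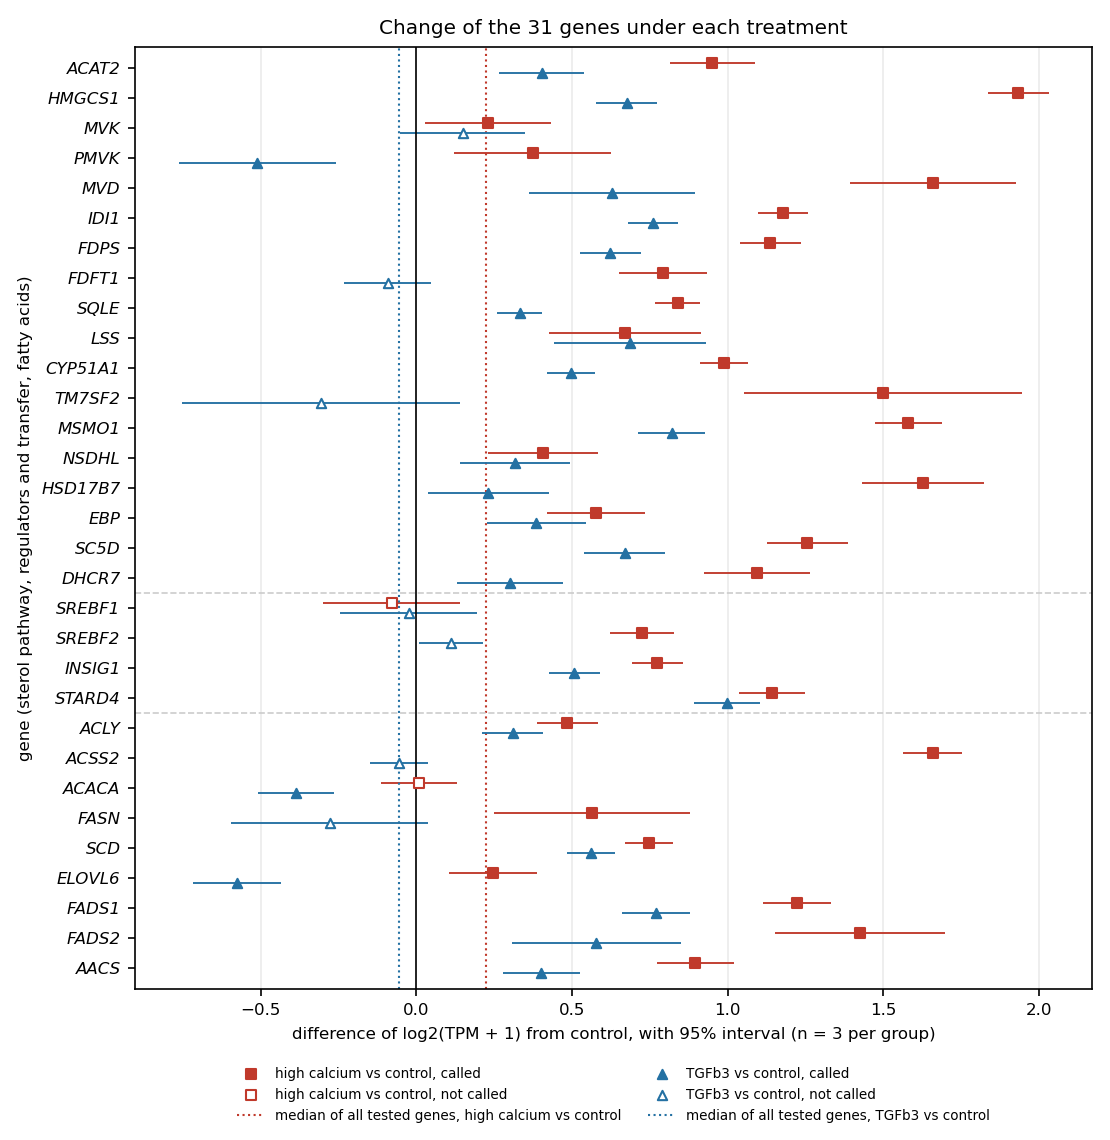
Difference of log2(TPM + 1) from control (x axis) for each of the 31 genes (y axis), with 95% intervals from the fit over all genes, for high calcium (squares) and TGFb3 (triangles), 3 samples per group. Filled symbols passed the test, open ones did not, and dotted lines mark the median of all tested genes (0.22 and −0.06); PMVK, ACACA and ELOVL6 are the filled TGFb3 symbols below 0.

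PMVK and ELOVL6 were the 2 members called in opposite directions against control, higher with high calcium and lower with TGFb3, and neither was called with high calcium after rescaling. Whether the treatments differ was tested by comparing them directly. High calcium values were higher than TGFb3 values for 27 of the 31 genes and lower for none, with 4 not called, while 50.4% of all tested genes were higher and 16.2% lower. The median was 0.51 over the 31 genes and 0.27 over all tested genes. After rescaling, 21 were higher and 5 lower, against 29.7% and 30.8% of all tested genes, and the median was 0.22. Samples of the 2 treatments did not overlap for 27 members, with high calcium above in each, against 53.1% of tested genes in that direction and 18.1% in the other.

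TM7SF2 differed most between the treatments, by 1.81 ± 0.20 (SE, adjusted p = 2.4e-05). ACSS2 followed with 1.71 ± 0.042 (SE, adjusted p = 8.0e-10) and HSD17B7 with 1.40 ± 0.087 (SE, adjusted p = 4.2e-07). Next came HMGCS1 with 1.26 ± 0.044 (SE, adjusted p = 7.5e-09) and MVD with 1.03 ± 0.12 (SE, adjusted p = 3.2e-05). After rescaling these 5 genes differed by 1.55, 1.42, 1.10, 0.96 and 0.74, each called higher with high calcium. FDFT1 and PMVK differed by 0.89 and 0.88, FASN by 0.84 and ELOVL6 by 0.82. SREBF2 was higher with high calcium by 0.61 (adjusted p = 1.5e-06), and by 0.32 after rescaling.

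The 4 genes not called were LSS, SREBF1, MVK and NSDHL, with differences of −0.02, −0.05, 0.08 and 0.09. Their 95% intervals were −0.26 to 0.23, −0.27 to 0.17, −0.12 to 0.28 and −0.09 to 0.26, which leave room for modest differences either way. STARD4, ACLY and SCD changed direction with the scaling. As deposited they were higher with high calcium by 0.14, 0.18 and 0.19, and after rescaling they were called lower by 0.15, 0.12 and 0.11. LSS and SREBF1 were also called lower after rescaling, at −0.31 and −0.34. INSIG1, EBP and ACACA were higher with high calcium by 0.27, 0.19 and 0.40 as deposited and were not called after rescaling, at −0.03, −0.11 and 0.10.

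**Figure D5:**
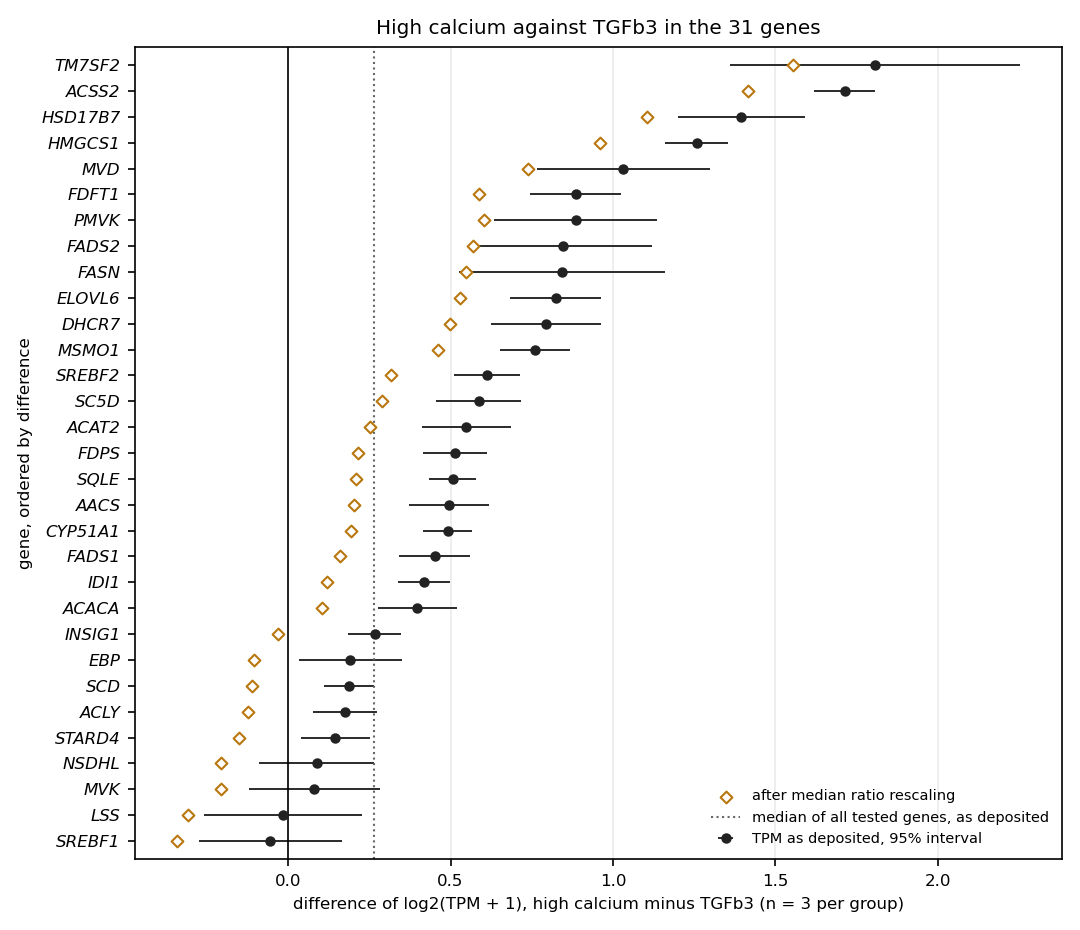
Difference of log2(TPM + 1), high calcium minus TGFb3 (x axis), for the 31 genes ordered by size (y axis), with 95% intervals (3 samples per group); diamonds give the difference after median ratio rescaling and the dotted line the median of all tested genes as deposited. TM7SF2, ACSS2, HSD17B7 and HMGCS1 lie farthest to the right, and LSS, SREBF1, MVK and NSDHL have intervals that include 0.

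Other genes of the sterol system were taken from lists chosen by function. Of 10 genes for SREBP processing and sterol sensing, 5 (50%) were higher and 1 lower with high calcium, near the 46.1% and 17.0% of all tested genes, and 3 and 1 were after rescaling. With TGFb3, 1 was higher and 5 (50%) were lower (2 and 5 after rescaling), against 26.5% and 33.1% of all tested genes. ERLIN2, which helps degrade sterol-regulated proteins of the endoplasmic reticulum, was higher with high calcium by 1.03 ± 0.060 (SE, adjusted p = 3.1e-07). SCAP, the escort of the SREBP precursors, was lower with TGFb3 by 0.55 ± 0.13 (SE, adjusted p = 0.0037). Of 12 tested genes for sterol uptake, storage and export, 9 (75.0%) were higher and none lower with high calcium (7 and 2 after rescaling), against 46.1% and 17.0% of all tested genes. With TGFb3, 4 were higher and 4 lower (33.3% each), near the 26.5% and 33.1% of all tested genes. LIPA, the lysosomal acid lipase, was higher with high calcium by 1.18 ± 0.034 (SE, adjusted p = 2.8e-09). ABCG1, a sterol exporter, was higher with TGFb3 by 1.61 ± 0.087 (SE, adjusted p = 1.8e-07). It was also higher with high calcium, by 0.88 (0.65 after rescaling). Of 4 other tested sterol synthesis genes, 2 were higher and 2 lower with high calcium, and 1 was higher and 1 lower with TGFb3 (2 and 1 after rescaling). LBR, a nuclear envelope protein that catalyses the same reduction as TM7SF2, averaged 164 ± 3.62 TPM in controls, 87.4 ± 3.41 with high calcium and 97.8 ± 3.44 with TGFb3. LBR was lower in both, by 0.90 ± 0.043 (SE, adjusted p = 7.6e-08) and 0.74 ± 0.043 (SE, adjusted p = 3.1e-07), and the rise of TM7SF2 with high calcium ran the other way.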

How the data were processed

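RNA of 9 MCF10A samples, 3 per group by the labels, was sequenced as paired reads of 101 bases. The authors deposited 1 table of TPM values with 58288 entries. HISAT2 and hg38 are named in the submitters' processing notes. The sources used here do not give the tool that computed TPM, the read depth or any use of strand, so counting error cannot be stated. Entry IDs matched GENCODE 29 for 58025 entries (version suffix ignored), and its GRCh38 coordinates are printed. Entries that share a symbol were summed, giving 56609 symbols. No sample column was unmapped.

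The 13968 symbols whose mean over the samples reached 1 TPM were tested as log2(TPM + 1) with limma 3.58.1 (R 4.3.3), group means, all 9 samples in 1 fit and a variance trend, with 6 residual degrees of freedom. P-values were adjusted by Benjamini-Hochberg over all tested symbols and called below 0.05. Fold changes of low genes are understated on this scale. The procedure was tested on simulated data. Those data held no shift common to all genes, so the test does not cover the shift seen with high calcium. Figures used Python 3.11.15, pandas 2.3.3 and matplotlib 3.10.9. Motifs and promoter sequences are from RefSeq (GRCh38.p14).

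The members, lists and tests were chosen with earlier results of these data known. Per-sample values are printed for the 4 largest called rises and falls against control, for SREBF1, SREBF2, INSIG1 and genes called in opposite directions. FASN was added after its values were seen. Up to 3 called genes per other list and comparison could be named, with at least 10 TPM in the higher group. Not every gene so picked is reported here. The 19 alternatives changed the pseudocount (0.1, 5), the low-value filter (none, 5 TPM), scaling, samples, variance model or replicate block.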

Additional observations from a re-analysis of the deposited data

How the results depend on the processing

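Across the 19 alternatives, the call and direction held in all for 24 of the 31 genes with high calcium against control, 26 with TGFb3 against control and 21 between the treatments. Pseudocounts, the stricter filter of 5 TPM and the fit to the compared groups alone reversed none of the 31 genes. Scaling had the most effect. With high calcium against control, 2 genes were called lower, in place of none, after median ratio rescaling, quantile normalisation or leaving out mitochondrial genes: 1 regulator and 1 fatty acid gene. High calcium against TGFb3 gave 5 genes lower after median ratio rescaling (1 sterol, 2 regulator, 2 fatty acid) and 1 after quantile normalisation (1 regulator), and only 1 regulator stayed higher under each of the 3 scalings, in place of 3.

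The differences that changed sign were small. With high calcium against control, ACACA was −0.24 (median ratio), −0.16 (quantile) and −0.18 (without mitochondrial genes), ELOVL6 −0.0061 and MVK −0.014 (median ratio). With TGFb3 against control, SREBF1 was 0.018 (median ratio) and 0.004 (quantile). Between the treatments, median ratio rescaling gave ACLY −0.12, EBP −0.11, INSIG1 −0.03, MVK −0.21, NSDHL −0.21, SCD −0.11 and STARD4 −0.15. Quantile normalisation gave ACLY −0.021, MVK −0.16, NSDHL −0.14 and STARD4 −0.0846. Leaving out mitochondrial genes gave ACLY −0.021, EBP −0.0037, MVK −0.11, NSDHL −0.11, SCD −0.01 and STARD4 −0.049. With 1 sample left out, ACACA ranged from −0.023 to 0.069 and SREBF1 from −0.14 to 0.033 with high calcium, SREBF1 from −0.088 to 0.087 with TGFb3, and MVK from −0.023 to 0.17 and LSS from −0.093 to 0.065 between the treatments. The cause of these changes was not tested.

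With 1 sample left out at a time, 27 to 29 genes were higher with high calcium, 20 to 22 were higher and 3 to 5 lower with TGFb3, and 25 to 27 were higher between the treatments. Sterol genes lower with TGFb3 numbered 1 to 2. Leaving out control replicate 1 gave the count of 5, by adding TM7SF2 and FASN. Same-numbered samples did not deviate together (correlations of deviations from −0.07 to −0.004), and the main fit did not use the numbers as a pairing. These correlations cannot show whether same-numbered samples were handled together. With the replicate number as a block, 29, 20 and 27 genes were higher in the 3 comparisons and 0, 3 and 0 lower, and the lost call was HSD17B7 with TGFb3 (0.23, adjusted p = 0.063).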

Other observations

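Genes that use the products of these pathways are given as values. Their counts stand against 46.1% of all tested genes higher and 17.0% lower with high calcium (29.7% and 30.8% after rescaling), and 26.5% higher and 33.1% lower with TGFb3 (28.9% and 30.6%). Of 10 tested genes for glycerolipid synthesis and lipid droplets, 6 (60%) were higher and 1 lower with TGFb3, and 7 (70%) were higher and none lower with high calcium (4 and 3 after rescaling, or 40% and 30%). GPAM, the acyltransferase that starts glycerolipid synthesis, averaged 10.1 ± 0.649 TPM in controls, 8.96 ± 0.427 with high calcium and 82.2 ± 6.01 with TGFb3, a difference with TGFb3 of 2.90 ± 0.073 (SE, adjusted p = 1.5e-09). That was larger than the difference of any of the 31 synthesis genes in any comparison. All 4 tested acyl-CoA synthetases were higher with high calcium (2 after rescaling), and 2 were lower with TGFb3. ACSL1, which activates long-chain fatty acids, averaged 263 ± 13.7 TPM in controls, 620.2 ± 19.7 with high calcium and 113 ± 6.70 with TGFb3.

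SCD5, a desaturase related to SCD, averaged 43.8 ± 1.13 TPM in controls, 31.8 ± 1.69 with high calcium and 98.7 ± 3.52 with TGFb3, whereas SCD rose in both treatments. It belongs to a list of other fatty acid synthesis and elongation genes, of which 13 of 17 tested (76.5%) were higher and 2 (11.8%) lower with high calcium (8 and 3 after rescaling), and 7 (41.2%) were higher and 4 (23.5%) lower with TGFb3 (8 and 4 after rescaling). In the isoprenoid branch, which leaves the sterol pathway at farnesyl pyrophosphate, 5 of 9 genes (55.6%) were higher and 2 (22.2%) lower with high calcium (4 and 3 after rescaling), shares near those of all tested genes, and 1 (11.1%) was higher and 5 (55.6%) lower with TGFb3 (2 and 5 after rescaling). PDSS1, for the side chain of coenzyme Q, was lower in both, by 1.01 ± 0.051 (SE, adjusted p = 1.1e-07) and 1.23 ± 0.051 (SE, adjusted p = 3.6e-08). Of 12 fatty acid oxidation genes, 11 (91.7%) were higher and none lower with high calcium (7 and 1 after rescaling), and 4 (33.3%) were higher and 5 (41.7%) lower with TGFb3 (4 and 4 after rescaling), near the shares of all tested genes.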
